A study of Mus musculus with 8 samples.

Results

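The opioid and cannabinoid system of the mouse dorsal root ganglion, which holds the cell bodies of sensory neurons, was followed through 10 genes. They were chosen by symbol: the receptor genes Oprm1, Oprd1, Oprk1, Oprl1 and Cnr1, the peptide precursor genes Penk, Pdyn and Pnoc, and the endocannabinoid enzyme genes Faah and Mgll. All 10 were found among the 25780 genes counted in each library and all 10 passed the filter on low counts. The inducible knockout mice (iKO) carried G9aflox/flox, floxed alleles of Ehmt2, the gene of the histone methyltransferase G9a, with the inducible Cre driver Avil-iCreERT2/AJwo. Avil, whose promoter drives that Cre, is expressed in sensory neurons, so other cells of the ganglion were not targeted by design. The controls (WT) were wild-type littermates that lacked Cre; it is not stated if they too had floxed alleles. The left paw of mice of either genotype was treated with vehicle or with CFA (complete Freund's adjuvant), which causes lasting inflammation, and ganglia were taken 14 days later. Each of the 4 groups (WT vehicle, WT CFA, iKO vehicle, iKO CFA) held 2 libraries. Neither the age of the mice nor the side of the ganglia is stated, nor whether a library is 1 animal, so p-values measure the spread between libraries, which may be technical.

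Opioid peptides are cut from large precursors and act on receptors coupled to inhibitory G proteins, which close calcium channels and open potassium channels and so lower transmitter release from sensory endings. The CB1 cannabinoid receptor works through the same class of G proteins, and its ligands anandamide and 2-arachidonoylglycerol are lipids made on demand and removed by enzymes. G9a places methyl marks on lysine 9 of histone H3, a repressive modification, and Oprm1 and Cnr1 are known as genes it represses in dorsal root ganglia after nerve injury. The comparisons below describe these genes in paw inflammation, with and without the neuronal deletion.

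Values are read counts brought to a common library size (CPM) by edgeR's trimmed mean of M values (TMM), and differences are log2 fold changes ± standard error from edgeR's quasi-likelihood test, with p-values adjusted (Benjamini-Hochberg) across the 20235 genes that entered the test and a threshold of 0.05. Library totals ran from 26312614 to 42971823 reads. Ehmt2 had 74.4 and 65.4 CPM in WT vehicle, 74.2 and 61.3 in WT CFA, 34.0 and 31.6 in vehicle-treated iKO and 45.0 and 44.2 in iKO CFA, so every iKO library lay below every WT library. None of 19 pan-neuronal genes was at 0 in any library. The same held for 8 Schwann cell genes and 8 macrophage genes, so this alone does not identify the tissue. Some libraries stood apart. The WT vehicle libraries held 1160 to 1370 CPM of 18 immediate early genes, 994 to 2294 CPM of 9 B and plasma cell genes and 66.7 to 82.4 CPM of 10 T cell genes, against at most 332, 213 and 15.7 CPM elsewhere, and WT vehicle library 1 held 424 CPM of 8 skeletal muscle genes against at most 6.97 CPM. The WT CFA libraries differed from each other more than those of any other group, with 8407 and 19431 CPM of 8 Schwann cell genes. The part of any of these in the results below was not tested, but calls that end without one of these libraries are named with the value without it.

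The promoters of the 4 receptor genes that were abundant enough for the comparisons below are shown because they differ in CpG content, a C followed by a G on the same strand, dense in CpG island promoters. Each is the 250 bases before a start of the gene in RefSeq (mouse GRCm38.p6); 3 starts each are listed for Oprl1, Oprm1 and Cnr1 and 1 for Oprd1, and the start shown is the 1 whose window holds no annotated exon base. It is printed 5′ to 3′ on the gene's strand with each CpG in capitals; the counts themselves were made on GRCm39. An entry was found for 7 of the 10 genes, and Oprk1, Penk and Pnoc had none.
Oprl1 (chr2:181714766-181715015, plus strand): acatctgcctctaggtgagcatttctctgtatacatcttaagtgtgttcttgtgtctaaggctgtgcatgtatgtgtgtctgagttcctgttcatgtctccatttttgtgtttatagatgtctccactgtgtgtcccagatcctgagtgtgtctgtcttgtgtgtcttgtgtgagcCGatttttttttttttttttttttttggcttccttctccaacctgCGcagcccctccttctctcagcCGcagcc
Oprm1 (chr10:6788320-6788569, plus strand): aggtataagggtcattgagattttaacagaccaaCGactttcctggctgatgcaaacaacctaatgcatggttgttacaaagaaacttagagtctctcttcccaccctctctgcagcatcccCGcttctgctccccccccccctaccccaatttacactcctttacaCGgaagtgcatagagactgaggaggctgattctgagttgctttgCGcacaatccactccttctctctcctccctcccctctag
Cnr1 (chr4:33924014-33924263, plus strand): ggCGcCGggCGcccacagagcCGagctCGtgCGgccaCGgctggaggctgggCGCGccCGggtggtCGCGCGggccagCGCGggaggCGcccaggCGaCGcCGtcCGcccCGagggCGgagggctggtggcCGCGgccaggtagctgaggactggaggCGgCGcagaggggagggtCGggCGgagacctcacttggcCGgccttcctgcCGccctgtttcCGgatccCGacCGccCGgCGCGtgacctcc
Oprd1 (chr4:132144487-132144736, minus strand): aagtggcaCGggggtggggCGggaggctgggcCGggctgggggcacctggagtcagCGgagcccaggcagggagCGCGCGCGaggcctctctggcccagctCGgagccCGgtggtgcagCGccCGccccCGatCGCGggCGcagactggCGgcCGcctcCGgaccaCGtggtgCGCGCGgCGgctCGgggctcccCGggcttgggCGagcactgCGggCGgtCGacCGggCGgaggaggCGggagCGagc
The Cnr1 window holds 36 CpGs and the Oprd1 window 34, more than 97.4% and 96.5% of the 32851 windows of this length in the table, whose median is 6. The Oprm1 window holds 4 CpGs and the Oprl1 window 3. The windows of the other starts hold 28 and 5 CpGs for Cnr1, 0 and 4 for Oprm1 and 1 and 2 for Oprl1, so the CpG content of Cnr1 depends on the start. The letters GGGCGG, searched on both strands, occur 5 times in the Cnr1 window and 4 times in that of Oprd1, against 32.74% of all windows with a match. Neither TGANTCA (6.749% of all windows) nor TGACGTCA (1.546%), also searched on both strands, occurs in any of the 4. These matches describe the letters only.

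Per kilobase of exon, Mgll was the most abundant of the 10 genes in every group, at 15.6 ± 1.94 CPM per kilobase in WT vehicle and 22.3 ± 0.590, 23.3 ± 1.07 and 23.6 ± 0.378 in WT CFA, iKO vehicle and iKO CFA (mean ± SD, n = 2). In WT vehicle Penk followed at 5.09 ± 0.592, and Cnr1 (4.08 ± 1.42), Oprd1 (4.07 ± 1.26), Faah (3.75 ± 0.288) and Oprl1 (3.41 ± 1.20) came next with overlapping spreads. Oprm1 was at 1.66 ± 0.613 CPM per kilobase, and Oprk1, Pdyn and Pnoc were at 0.541 ± 0.119, 0.450 ± 0.0187 and 0.234 ± 0.177. In iKO vehicle Oprl1 stood second at 10.8 ± 1.39 CPM per kilobase, above Cnr1 at 7.04 ± 0.0363 without overlap, whereas in WT vehicle it had stood sixth.

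**Figure D1:**
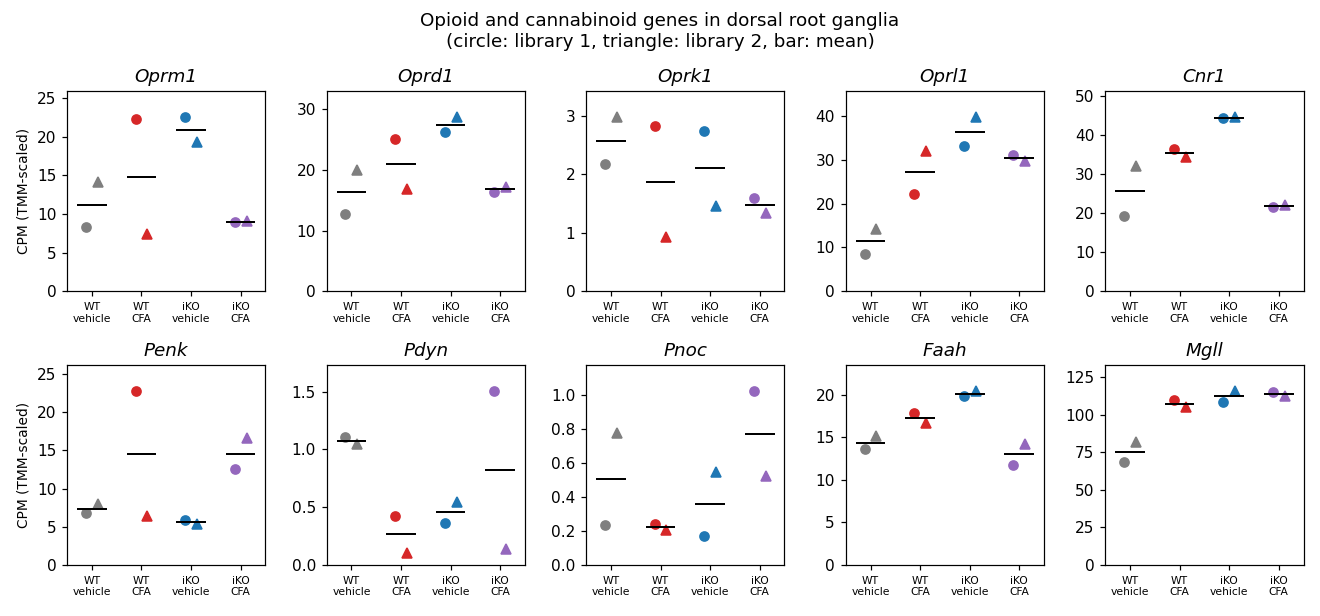
TMM-scaled CPM (linear axes from 0) of each of the 10 genes in the 4 groups, with a circle for library 1, a triangle for library 2 and a bar for their mean. Oprl1 lies at 8.58 to 14.3 CPM in WT vehicle, below its range of 22.1 to 39.7 CPM in the 6 other libraries, and Oprm1 and Penk show a wide gap between the WT CFA libraries.

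With CFA in WT mice, 1 of the 10 genes rose and none fell: Oprl1, the gene of the nociceptin receptor. Of all genes tested 16.8% passed in this comparison, 8.12% as higher and 8.71% as lower, so a share of 10% of the members is not above that background. Both CFA libraries lay above both vehicle libraries for Oprl1, Cnr1, Faah and Mgll and below them for Pdyn, while 56.1% of all genes were separated in either direction (25.3% higher, 30.8% lower); under pan-neuronal scaling the changes of Cnr1 and Faah turned to -0.0031 and -0.23. The median change of the members was 0.38 against -0.03 for all genes. Without WT CFA library 2 Oprm1, Oprl1, Penk and Mgll passed as higher, where 29.9% of all genes passed, and without WT vehicle library 1 or iKO CFA library 2, or with the WT libraries alone, none did.

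With CFA in iKO mice none of the 10 genes passed edgeR's test, in a comparison where 0.0395% of all genes passed (8 genes), although 5 members had an unadjusted p under 0.05. The libraries of both treatments were separated for 6 members: Oprm1, Oprd1, Oprl1, Cnr1 and Faah were at lower levels after CFA and Penk at higher ones, against 69.5% of all genes separated in either direction (33.9% higher, 35.6% lower). The median change was -0.39 for the members and -0.00 for all genes. When either WT CFA library, or both, was left out of the shared estimate of spread, or the iKO libraries were fitted alone, Oprm1, Oprd1, Cnr1 and Faah passed as lower and Penk as higher; DESeq2 called Cnr1 and Faah lower and Penk higher. In those fits the share of all genes that passed was 32.2% and 32% without WT CFA library 1 or 2, 34.9% without both, 45.3% with the iKO libraries alone and 17% in DESeq2, so more calls among the members came with more calls among all genes. In that comparison the fitted changes themselves hardly moved, as the values for each gene below show.

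Under vehicle, 2 of the 10 genes were higher in iKO than in WT, Oprl1 and Mgll, and none was lower, while 17.6% of all genes passed (8.28% higher, 9.33% lower). The change of Mgll turned to -0.14 and that of Faah to -0.24 when libraries were scaled on pan-neuronal genes, and that of Oprl1 kept its direction. The iKO libraries lay above the WT libraries for 6 members (Oprm1, Oprd1, Oprl1, Cnr1, Faah and Mgll) and below them for Penk and Pdyn, against 75.4% of all genes separated in either direction (38.9% higher, 36.5% lower). The members' median was 0.53 and that of all genes 0.01. Without WT CFA library 1 or 2 all 6 of those members passed as higher, without both, or with the vehicle libraries alone, all but Faah did, and without WT vehicle library 1 or iKO vehicle library 2 none did. All genes passed at 39.2%, 38.9%, 41.6% and 42.9% in the first 4 of these fits.

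Under CFA none of the 10 genes differed between iKO and WT past the threshold in edgeR or in DESeq2, and 1 had an unadjusted p under 0.05; 1.7% of all genes passed (1.5% higher, 0.208% lower). The libraries were separated for Mgll and Pnoc (iKO higher) and for Cnr1 and Faah (iKO lower), against 38.3% of all genes in either direction, 21.6% higher and 16.7% lower; the sign of Faah turned to 0.048 under pan-neuronal scaling. The members' median was -0.16 against -0.02 for all genes. Averaged over treatments, Oprl1 alone was higher in iKO, in a comparison where 5.58% of all genes passed (3.18% higher, 2.4% lower). The interaction, which is the CFA response in iKO minus that in WT, was negative and past the threshold for Oprl1 and Cnr1, where 9.36% of all genes passed in either direction, 6.19% as higher and 3.17% as lower. The median interaction was -0.70 for the members and -0.04 for all genes, and it included 7 negative and 3 positive values.

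**Figure D2:**
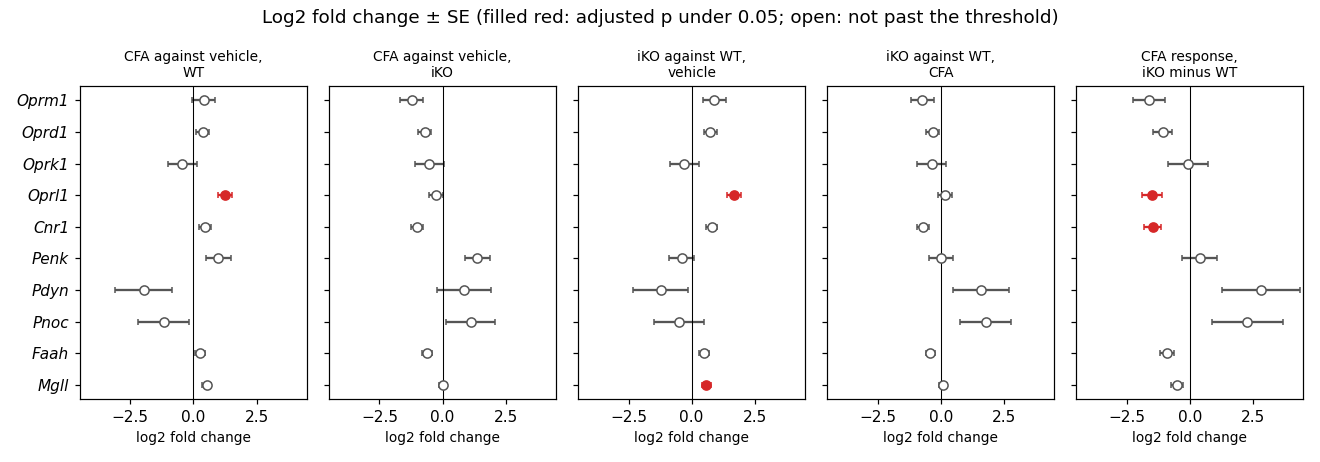
Log2 fold change (x axis, TMM scaling) of the 10 genes in 4 comparisons of groups and in the interaction, with bars for 1 standard error and filled red points for an adjusted p under 0.05. The calls are Oprl1 after CFA in WT (1.24), Oprl1 and Mgll in iKO against WT under vehicle (1.67 and 0.58), and Oprl1 and Cnr1 in the interaction (-1.50 and -1.48); under pan-neuronal scaling none of these passes and Mgll turns to -0.14.

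Oprl1 encodes the receptor of nociceptin, the peptide cut from the product of Pnoc. It had 8.58 and 14.3 CPM in WT vehicle, 22.1 and 32.1 in WT CFA, 33.1 and 39.7 in vehicle-treated iKO and 31.1 and 29.8 in iKO CFA. The WT vehicle libraries were the lowest of the 8, and the libraries of the other 3 groups overlapped in part. CFA raised it in WT by 1.24 ± 0.28 (edgeR, adjusted p = 0.0219; 2.37-fold), and it was higher in iKO than in WT under vehicle by 1.67 ± 0.28 (0.00777; 3.18-fold) and averaged over treatments by 0.92 ± 0.20 (0.0319). In iKO the CFA change was -0.26 ± 0.27 (adjusted p = 0.564, 95% interval -0.88 to 0.37), a value that turned to 0.43 under pan-neuronal scaling. Under CFA the genotypes differed by 0.17 ± 0.27 (0.818), with a 95% interval from -0.45 to 0.79. The interaction was -1.50 ± 0.39 (adjusted p = 0.0481).

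Each Oprl1 call ended when certain single libraries were left out. Without WT vehicle library 1, edgeR gave 0.92 for CFA in WT (adjusted p = 0.185), 1.33 for iKO against WT under vehicle (0.0855), 0.75 averaged over treatments (0.136) and -1.16 for the interaction (0.203). The CFA call in WT also ended without iKO CFA library 2 (adjusted p = 0.0556) and with the WT libraries alone (0.115), with changes about as large as the reported one, and the vehicle call without iKO vehicle library 2 (1.54, 0.0676). Leaving out any iKO library ended the averaged call (0.85 to 0.98, adjusted p 0.088 to 0.135) and the interaction (-1.63 to -1.37, 0.12 to 0.191), again at changes close to the reported ones, and RLE scaling ended the interaction call (-1.46, 0.0545). Pan-neuronal scaling ended every Oprl1 call: CFA in WT (0.83, 0.111), vehicle (0.98, 0.0578), averaged (0.78, 0.108) and the interaction (-0.40, 0.517). Oprl1 and its neighbour Rgs19 share 0 exon bases in GENCODE M21.

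Cnr1 encodes the CB1 cannabinoid receptor. It had 19.3 and 32.0 CPM in WT vehicle, 36.3 and 34.4 in WT CFA, 44.2 and 44.5 in vehicle-treated iKO and 21.7 and 22.1 in iKO CFA. The iKO vehicle libraries were the highest of the 8, and the iKO CFA libraries lay within the range of WT vehicle. The interaction was -1.48 ± 0.33 (edgeR, adjusted p = 0.0321), made of a change with CFA of 0.46 ± 0.23 in WT (adjusted p = 0.206) and of -1.02 ± 0.24 in iKO (0.0943). The WT value was -0.0031 under pan-neuronal scaling. Without both WT CFA libraries the change in iKO was -1.01 (adjusted p = 0.00391), and under pan-neuronal scaling it was -0.33 (0.303) and the difference between genotypes under vehicle 0.094 (0.775). Under vehicle Cnr1 differed between the genotypes by 0.79 ± 0.23, at the edge of the threshold (edgeR, adjusted p = 0.0503, DESeq2 0.0243). Under CFA it differed by -0.69 ± 0.23 (edgeR, adjusted p = 0.217), and by -0.73 without WT CFA library 2.

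The interaction call of Cnr1 ended on leaving out WT vehicle library 1 (-1.14, adjusted p = 0.104) and each iKO library in turn (-1.49 to -1.42, 0.117 to 0.136). Averaged over treatments Cnr1 differed between genotypes by 0.05 ± 0.17 (adjusted p = 0.901, 95% interval -0.33 to 0.43), with -0.070 under pan-neuronal scaling. Higher iKO values under vehicle and lower ones under CFA thus average to a small difference.

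Oprm1, the gene of the mu opioid receptor, through which morphine acts, had 8.28 and 14.1 CPM in WT vehicle, 22.2 and 7.43 in WT CFA, 22.6 and 19.3 in vehicle-treated iKO and 8.92 and 9.05 in iKO CFA. The WT CFA libraries held the second highest and the lowest value of the 8, so the WT response could not be resolved. The fitted CFA change in WT was 0.41 ± 0.45 (edgeR, adjusted p = 0.576) and -0.17 under pan-neuronal scaling. It was -0.61 without WT CFA library 1 and 0.98 without WT CFA library 2.

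In iKO, where replicates of Oprm1 were close, both CFA libraries lay below both vehicle libraries. The change was -1.22 ± 0.46 (edgeR, adjusted p = 0.133; 95% interval -2.26 to -0.17), and without both WT CFA libraries it was -1.21 and passed (0.00378). Under vehicle Oprm1 was at higher levels in both iKO libraries than in either WT library, by 0.90 ± 0.46 (adjusted p = 0.197), and by 0.83 without both WT CFA libraries, which passed (0.0189). Under CFA the difference was -0.73 ± 0.46 (adjusted p = 0.5), -1.32 without WT CFA library 2 and 0.28 without WT CFA library 1. The interaction of -1.63 ± 0.65 did not pass (adjusted p = 0.13). Its value was -2.22 without WT CFA library 2, a fit that leaves 1 WT CFA library. Under pan-neuronal scaling Oprm1 gave -0.53 for CFA in iKO (adjusted p = 0.292), 0.21 for iKO against WT under vehicle (0.681) and -0.36 for the interaction (0.594). In RefSeq the span of Oprm1 overlaps that of Ipcef1, with 96 shared exon bases of 6770 in GENCODE M21 and an unstated strand setting. Ipcef1 ran from 0.890 to 5.18 CPM and was higher in WT vehicle and iKO CFA than in the other groups, unlike Oprm1.

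Oprd1, the gene of the delta opioid receptor, a receptor for enkephalins, had 12.8 and 19.9 CPM in WT vehicle, 25.0 and 16.9 in WT CFA, 26.2 and 28.6 in vehicle-treated iKO and 16.3 and 17.2 in iKO CFA. As for Cnr1, the iKO vehicle libraries were the highest of the 8. The difference between genotypes under vehicle was 0.74 ± 0.27 (edgeR, adjusted p = 0.0851) and the CFA change in iKO -0.71 ± 0.27 (0.133), and both passed without both WT CFA libraries (0.68, 0.0214 and -0.70, 0.0212). Under pan-neuronal scaling they were 0.047 (adjusted p = 0.887) and -0.025 (0.941). The interaction was -1.07 ± 0.38 (adjusted p = 0.0995) and turned to 0.12 under pan-neuronal scaling.

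Oprk1, the gene of the kappa opioid receptor, was the least abundant of the 5 receptor genes, between 0.924 and 2.98 CPM in the 8 libraries, and its groups overlapped in all 4 comparisons. Its changes lay between -0.52 and -0.07 with edgeR adjusted p of at least 0.579, and its sign turned under pan-neuronal scaling for CFA in iKO (0.16), for iKO against WT under CFA (0.21) and for the interaction (1.21), the last also under RLE scaling (0.0010). The 95% interval for CFA in WT ran from -1.75 to 0.85, so a fall of more than 2-fold there could not be told from no change.

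Of the peptide precursor genes, Penk, whose product is cut into enkephalins, had 6.77 and 7.98 CPM in WT vehicle, 22.8 and 6.37 in WT CFA, 5.83 and 5.42 in vehicle-treated iKO and 12.5 and 16.7 in iKO CFA. Both iKO CFA libraries lay above both iKO vehicle libraries, by 1.37 ± 0.49 (edgeR, adjusted p = 0.124; DESeq2 1.40, 0.0335), and without both WT CFA libraries by 1.38, past the threshold (0.00108). In WT a single CFA library was high: the change was 0.99 ± 0.49 (0.195), 1.63 without WT CFA library 2 and -0.22 without WT CFA library 1.

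The interaction of Penk was 0.39 ± 0.69 (edgeR, adjusted p = 0.735), -0.26 without WT CFA library 2 and 1.59 without WT CFA library 1. Under pan-neuronal scaling it was 1.70 ± 0.59 (0.0552), so its size depended on which WT CFA library was kept and on the scaling. Under CFA the genotypes differed in Penk by -0.00 ± 0.48, by 0.59 under pan-neuronal scaling and by 1.20 without WT CFA library 1.

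Pdyn, the prodynorphin gene, was counted with 33 and 35 reads in WT vehicle, 16 and 3 in WT CFA, 15 and 19 in vehicle-treated iKO and 50 and 5 in iKO CFA, or 0.103 to 1.51 CPM. Pnoc, the nociceptin precursor gene, had 7 and 26, 9 and 6, 7 and 19, and 34 and 19 reads in the same order, or 0.172 to 1.02 CPM. At these counts differences of several-fold were not detectable: the interval for the CFA change in iKO ran from -1.61 to 3.29 for Pdyn and from -1.11 to 3.33 for Pnoc. Neither passed in any comparison, with edgeR adjusted p of at least 0.247. Without iKO CFA library 1 the CFA change of Pdyn in iKO turned from 0.84 to -1.72.

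Of the enzymes, Mgll encodes monoacylglycerol lipase, which breaks down 2-arachidonoylglycerol. It had 68.5 and 81.7 CPM in WT vehicle, 109.5 and 106 in WT CFA, 109 and 116 in vehicle-treated iKO and 115 and 113 in iKO CFA. Like Oprl1 it was lowest in the WT vehicle libraries, and the other 6 libraries lay within 105.5 to 116 CPM. The difference between genotypes under vehicle was 0.58 ± 0.17 (edgeR, adjusted p = 0.0483), and turned to -0.14 under pan-neuronal scaling. That call was lost under RLE scaling (0.52, 0.0572), with no filter (0.0678) and with the replicate block (0.58, 0.0768). It was also lost on leaving out either WT vehicle library or one of the iKO libraries, at changes of 0.44 to 0.69. The CFA change was 0.52 ± 0.17 in WT (adjusted p = 0.0698; DESeq2 0.0168) and 0.02 ± 0.17 in iKO (0.954), with a 95% interval from -0.37 to 0.41 in iKO. The interaction was -0.50 ± 0.24 (0.194) and 0.67 under pan-neuronal scaling.

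Faah encodes fatty acid amide hydrolase, which breaks down anandamide. It had 13.6 and 15.1 CPM in WT vehicle, 17.8 and 16.7 in WT CFA, 19.8 and 20.4 in vehicle-treated iKO and 11.8 and 14.2 in iKO CFA. Its order over the groups was that of Cnr1, and iKO vehicle was again above the other 3 groups without overlap. The CFA change in iKO was -0.63 ± 0.19 (edgeR, adjusted p = 0.104), or 0.056 under pan-neuronal scaling, and passed without both WT CFA libraries (-0.62, 0.0134). The interaction was -0.90 ± 0.27 (adjusted p = 0.0696; DESeq2 -0.84, 0.0294), and 0.29 under pan-neuronal scaling.

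Summed levels of neuronal genes also differed between the libraries. The 19 pan-neuronal genes summed to 12381 and 15613 CPM in WT vehicle, 25121 and 18889 in WT CFA, 24855 and 25115 in vehicle-treated iKO and 17595 and 17476 in iKO CFA. As for Oprd1, the iKO vehicle libraries and WT CFA library 1 were high and the WT vehicle and iKO CFA libraries low. The median change of the list was 0.52 for CFA in WT and -0.67 for CFA in iKO. It was 0.63 for iKO against WT under vehicle and -1.23 for the interaction. In that order 6 of 19 genes were higher, 0 changed, 6 were higher and 7 were lower. Of all genes 8.12% were higher, 0.0395% changed, 8.28% were higher and 3.17% were lower. Over the same comparisons 8 genes of large myelinated neurons had medians of 0.16, -1.09, 0.48 and -1.23, 9 genes of peptidergic nociceptors of 1.13, 0.36, 0.44 and -0.73, 10 genes of non-peptidergic nociceptors of 0.79, 0.10, 0.47 and -0.92, and 8 Schwann cell genes of -0.04, 1.08, -0.53 and 0.97. With CFA in iKO the nociceptor medians thus had the opposite sign to the pan-neuronal one. No gene of either nociceptor list passed there, where 0.0395% of all genes did. The sums went apart: non-peptidergic genes summed to 1188 and 1038 CPM in iKO vehicle and to less, 971 and 906, in iKO CFA. Peptidergic genes summed to 2452 and 2446 CPM in iKO vehicle and to more, 4016 and 4412, in iKO CFA. In whole ganglia, fewer cells of a type and less RNA per cell cannot be told apart. The part of neuronal content in the differences of the members was not tested.

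**Figure D3:**
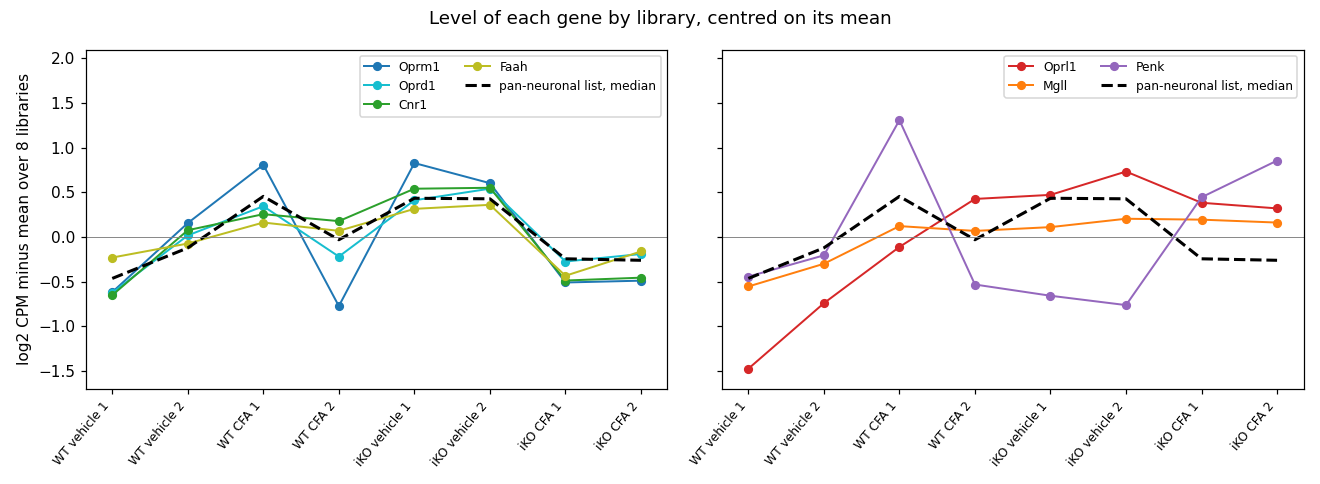
Log2 CPM of 7 members in each of the 8 libraries, centred on each gene's mean, with the median of 19 pan-neuronal genes dashed; lines join libraries for the eye only. In iKO CFA, where the dashed line is at -0.25 and -0.26, Oprm1, Oprd1, Cnr1 and Faah (left) also lie below their own means. Oprl1, Mgll and Penk (right) lie above the dashed line there.

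Scaling the libraries on the 19 pan-neuronal genes in place of TMM moved the median of all genes by -0.50 for CFA in WT, 0.68 for CFA in iKO, -0.73 for iKO against WT under vehicle and 1.18 for the interaction, and every change is read relative to that shift. On that scale Cnr1 was at 27.2 and 35.4 in WT vehicle, 26.9 and 35.7 in WT CFA, 33.3 and 33.6 in vehicle-treated iKO and 26.1 and 27.0 in iKO CFA. The interaction of Cnr1 was then -0.33 ± 0.33 (edgeR, adjusted p = 0.445), against a median of 1.14 over all genes. Both iKO CFA libraries stayed below both iKO vehicle libraries for Cnr1, and its WT groups overlapped. Oprl1 was at 12.1 and 15.8, 16.4 and 33.3, 24.9 and 30.0, and 37.5 and 36.3 on that scale, still lowest in WT vehicle, and its vehicle difference was 0.98 ± 0.33 (0.0578). Penk rose with CFA in iKO on that scale by 2.06 ± 0.43 (adjusted p = 0.0471) and Mgll by 0.70 ± 0.20 (0.048), a rise of Mgll near the median of all genes of 0.68; 17.3% of all genes passed on that scale, and under TMM neither member did.

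**Figure D4:**
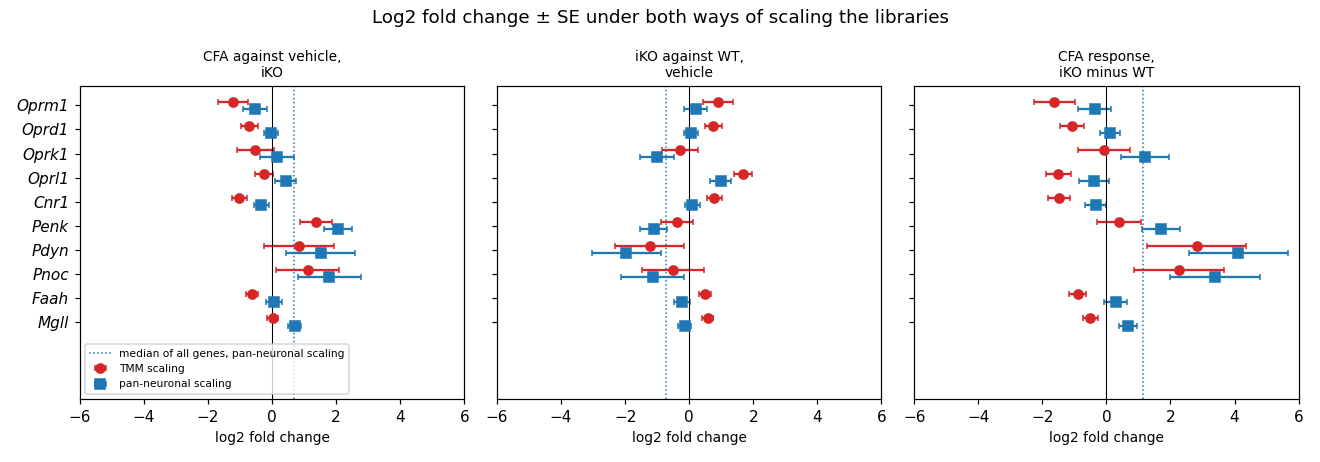
Log2 fold change ± standard error of the 10 genes with libraries scaled by TMM (red circles) and on 19 pan-neuronal genes (blue squares) in 3 contrasts; the dotted line is the median of all genes under pan-neuronal scaling. In the interaction Cnr1 moves from -1.48 to -0.33 and Oprl1 from -1.50 to -0.40, and Oprd1, Oprk1, Faah and Mgll turn from negative to positive, while the median of all genes lies at 1.14.

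Ratios of counts between members do not depend on how libraries are scaled. The ratio of Cnr1 to Oprl1 reads was 2.25 and 2.24 in WT vehicle, 1.64 and 1.07 in WT CFA, 1.34 and 1.12 in vehicle-treated iKO and 0.696 and 0.743 in iKO CFA. It was therefore highest in both WT vehicle libraries and lowest in both iKO CFA libraries, with WT CFA and iKO vehicle overlapping between them. The ratio of Cnr1 to Mgll reads was 0.282 and 0.392, 0.331 and 0.326, 0.407 and 0.384, and 0.188 and 0.197 in the same order. It too was lowest in iKO CFA, but WT vehicle was not highest, so the place of WT vehicle depends on the gene divided by. The ratio of Oprm1 to Oprl1 reads was 0.965 and 0.992, 1.01 and 0.232, 0.681 and 0.486, and 0.287 and 0.304 in the same order. WT CFA library 1 thus resembled WT vehicle in this ratio, and WT CFA library 2 lay below both iKO CFA libraries. These ratios are not per gene length, and only their differences between libraries are read.

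Among 13677 genes of sufficient abundance (mean log2 CPM of at least 1), likeness was measured as the root mean square difference of log2 CPM profiles over the 8 libraries, each centred on its mean. The genes nearest to Oprm1 were Slitrk3 (0.104), Slc25a22 (0.112) and Nsf (0.116), and those nearest to Cnr1 were Dach1 (0.105), Fgf9 (0.114) and Kcnh1 (0.137). Among the members Oprd1 was nearest to Cnr1, at 0.194 and rank 30, followed by Faah at 0.223 and rank 106. Oprm1 lay at 0.402 from Cnr1, at 0.327 from Oprd1 and at 0.821 from Oprl1. The profiles share the libraries and their depth, so the distances are descriptions.

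Genes that process or break down opioid peptides changed in both directions. With CFA in WT, 4 of 14 were higher and 2 lower, against 8.12% and 8.71% of all genes. In iKO against WT under vehicle the counts were also 4 and 2, against 8.28% and 9.33%. With CFA in iKO they were 0 and 0, against 0.0395% of all genes in either direction. In iKO against WT under CFA 1 was higher, against 1.5%. For the interaction 2 were higher and 2 lower, against 6.19% and 3.17%. Pcsk1n, whose product inhibits a prohormone convertase, had 184 and 241 CPM in WT vehicle against 536 to 688 CPM in the 6 other libraries. It rose with CFA in WT by 1.55 ± 0.21 (edgeR, adjusted p = 0.00418) and was higher in iKO under vehicle by 1.62 ± 0.21 (0.00291), and the first of these missed the threshold with the WT libraries alone (0.0591). Scg5, the gene of a chaperone of the convertase PC2, went the other way, from 185 and 204 CPM in WT vehicle to 66.4 to 102 CPM elsewhere.

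Scg5 fell with CFA in WT by 1.05 on the log2 scale (± 0.17, edgeR, adjusted p = 0.0081) and was lower in iKO under vehicle (-1.50 ± 0.18, 0.00197), a call kept in all 16 alternatives, and the CFA call ended without WT vehicle library 1 (-1.12, 0.0641) and with the WT libraries alone (0.0798). Anpep, the gene of an aminopeptidase that degrades enkephalins, had 11.5 and 10.8 CPM in WT vehicle, 2.11 and 3.05 in WT CFA, 3.77 and 5.31 in vehicle-treated iKO and 10.1 and 11.5 in iKO CFA. Both groups with high Anpep are those with low pan-neuronal totals. Its interaction was 3.37 ± 0.41 (adjusted p = 0.00385) and passed in all 14 alternatives.

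Of 31 tested genes of receptor signalling and desensitisation (34 listed), 2 were higher with CFA in WT and 0 lower, 0 changed with CFA in iKO, and 1 was higher and 1 lower in iKO under vehicle, shares not above those of all genes. Ogfr, the opioid growth factor receptor gene, was lower in iKO under vehicle by -0.64 ± 0.17 (edgeR, adjusted p = 0.0349). That call was lost with the replicate block and without any one of the 6 WT vehicle and iKO libraries.

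Of 19 genes of endocannabinoid synthesis, breakdown and targets, 5 were higher and 2 lower with CFA in WT, 5 higher and 1 lower in iKO under vehicle, 0 changed with CFA in iKO, and 2 had a positive and 3 a negative interaction, against 16.8%, 17.6%, 0.0395% and 9.36% of all genes in either direction. Gpr119, the gene of a receptor for oleoylethanolamide, had 1.07 and 1.97 CPM in WT vehicle, 2.46 and 3.42 in WT CFA, 8.68 and 7.72 in vehicle-treated iKO and 5.30 and 4.91 in iKO CFA. All 4 iKO libraries lay above all 4 WT libraries. It was higher in iKO under vehicle by 2.42 ± 0.37 (edgeR, adjusted p = 0.00509) and averaged over treatments by 1.61 ± 0.25 (0.00945), calls lost without WT vehicle library 1 (2.04, 0.0557) and iKO vehicle library 1 (1.57, 0.052) respectively.

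Abhd12, the gene of a second lipase that hydrolyses 2-arachidonoylglycerol, had the pattern of Mgll, with 122 and 144 CPM in WT vehicle and 241 to 283 CPM in the other 6 libraries. It rose with CFA in WT by 0.96 ± 0.18 (edgeR, adjusted p = 0.0124) and was higher in iKO under vehicle by 1.06 ± 0.18 (0.00776); both calls were lost without WT vehicle library 1 (0.84, 0.118 and 0.93, 0.085) and under pan-neuronal scaling (0.46, 0.104 and 0.34, 0.178), the first also with the WT libraries alone (0.90, 0.127) and the second without iKO vehicle library 1 or 2 (1.09, 0.0713 and 1.04, 0.0883). Ptgs2, the gene of cyclooxygenase-2, which also oxidises endocannabinoids and is an immediate early gene, was counted with 69 and 134 reads in WT vehicle, 1 and 0 in WT CFA, 5 and 9 in vehicle-treated iKO and 27 and 45 in iKO CFA. It passed as lower with CFA in WT (adjusted p = 0.00369) and in iKO under vehicle (0.00954), the second call lost without any one of the 4 vehicle libraries (adjusted p 0.0577 to 0.0891). It passed as higher in iKO under CFA (0.0271), a call lost without either WT vehicle or either iKO CFA library and with the CFA libraries alone (0.068 to 0.264), and its interaction was positive (0.00414) and passed in all 14 alternatives.

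The histone H3 lysine 9 methylation and REST genes include G9a and the repressor REST that G9a works with. Of 11 genes, 2 were lower with CFA in WT, Rest and Ehmt1, against 8.71% of all genes as lower, and 1 was lower in iKO under vehicle, Ehmt2 itself, against 9.33%. Ehmt1, the gene of the partner methyltransferase GLP, changed by -0.99 ± 0.27 with CFA in WT (edgeR, adjusted p = 0.0404), a call lost without WT vehicle library 1 (-0.81, 0.252) or 2 (-1.16, 0.078), without any iKO library (0.0624 to 0.0793) and with the WT libraries alone (0.131). Rest had 17.7 and 13.0 CPM in WT vehicle against 6.40 to 11.0 CPM elsewhere, and fell with CFA in WT by 1.18 on the log2 scale (± 0.25, edgeR, adjusted p = 0.0174), a call lost without WT vehicle library 1 (-0.94, 0.15) and with the WT libraries alone (-1.24, 0.0798). Ehmt2 was lower in iKO than in WT by -1.09 ± 0.18 under vehicle (adjusted p = 0.00655) and by -0.60 ± 0.18 under CFA, which did not pass (0.154). The vehicle call of Ehmt2 was lost without WT vehicle library 1 (-1.01, 0.0662) or iKO vehicle library 1 (-1.14, 0.0693) or 2 (-1.03, 0.0958).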

How the data were processed

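Total RNA of dorsal root ganglia was sequenced in 8 libraries, 2 for each of 4 groups taken from the labels. The deposited values are counts of reads per gene symbol, unscaled. Per the submitters' processing notes the authors aligned reads with HISAT2 2.2.1 to GRCm39 (mm39), handled them with SAMtools 1.19.2, counted with featureCounts 2.0.6 and tested with DESeq2 (version not given); annotation and strand setting are not given in the sources used here. Here genes were filtered with filterByExpr (20235 of 25780 kept, at least 99.9% of reads), scaled by TMM and fitted in 1 quasi-likelihood model over all libraries (R 4.3.3, edgeR 4.0.16), with two-sided tests. The script was run on simulated counts with the same spread in all groups. That run does not show how the test fares with the unequal spread of these libraries. Alternatives were RLE and pan-neuronal scaling, no filter, DESeq2 1.42.0, legacy = FALSE, a replicate block, the compared groups alone and each library left out; leaving out both WT CFA libraries, and the same alternatives for pathway genes, were added after seeing the data.

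The members and gene lists were chosen with earlier results of these data known. Named were all 10 members, Ehmt2, up to 4 genes of each pathway list with the smallest p past the threshold in a comparison, and the 3 genes nearest in profile to Oprm1 and to Cnr1. A gene that this rule names is not reported here. Exon lengths and overlaps came from GENCODE M21 (GRCm38).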

Additional observations from a re-analysis of the deposited data

Results flagged for a closer look

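The CFA response of Cnr1 differed between the genotypes by the interaction term of edgeR's fit, at -1.48 ± 0.33 on the log2 scale (adjusted p = 0.0321), with the iKO response below the WT response; it was -0.33 under pan-neuronal scaling (0.445). The CFA response of Oprl1 differed in the same direction, at -1.50 ± 0.39 (adjusted p = 0.0481), and was -0.40 under pan-neuronal scaling (0.517) and -1.46 under RLE scaling (0.0545). The median interaction of all genes under pan-neuronal scaling was 1.14. In edgeR neither the Cnr1 nor the Oprl1 interaction passed without WT vehicle library 1 or without any iKO library.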

How the results depend on the processing

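Of the 60 results of the members, under 899 alternatives, 746 kept direction and side of the threshold, 35 lost a call, 61 gained one and 57 changed sign, 2 of these with a call in either fit. For CFA in WT (1 member called) the count was 0 under pan-neuronal scaling, 2 in DESeq2, 0 with the WT libraries alone and 0 to 4 with a library left out. For CFA in iKO (0, 0.0395%) it was 2 under pan-neuronal scaling (17.3%) and 3 in DESeq2 (17%). It was 5 with the iKO libraries alone (45.3%) and 5 without both WT CFA libraries (34.9%). For iKO against WT under vehicle (2) it was 1 under RLE, 0 under pan-neuronal scaling, 5 with the vehicle libraries alone, 5 without both WT CFA libraries and 0 to 6 with a library left out, for iKO against WT under CFA (0) 0 to 2, for the interaction (2) 1 under RLE, 0 under pan-neuronal scaling and 0 to 6, and averaged over treatments (1) 0 under pan-neuronal scaling and 0 to 3. In each comparison the highest count with a library left out came without a WT CFA library. In those fits, which leave 1 WT CFA library, a larger share of all genes passed than in the fit over all libraries. There, more calls among the members thus came with more calls among all genes. The interaction under pan-neuronal scaling went otherwise, with fewer calls among the members and more among all genes. The cause was not tested.

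Deviations of same-numbered libraries had correlations between groups from -0.14 to 0.03. With 2 libraries a group these cannot decide if same-numbered libraries were handled together, which is not stated. With the replicate block the count under vehicle was 1, where 12.6% of all genes passed, and the block changed no other count. With the block Oprk1's interaction was 0.17 and Penk under CFA 0.10.

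Pan-neuronal scaling shifted the median of all genes by -0.50 for CFA in WT, 0.68 for CFA in iKO, -0.73 under vehicle, 0.45 under CFA, -0.14 averaged and 1.18 for the interaction, so changes smaller than the shift can turn sign by construction. Under it the sign changed for CFA in WT in Cnr1 (-0.0031), Faah (-0.23), Oprd1 (-0.15) and Oprm1 (-0.17), for CFA in iKO in Faah (0.056), Oprk1 (0.16) and Oprl1 (0.43), under vehicle in Faah (-0.24), Mgll (-0.14) and Abhd6 (-0.053), under CFA in Faah (0.048), Oprd1 (0.17), Oprk1 (0.21) and Penk (0.59), averaged in Cnr1 (-0.070) and Faah (-0.10), and for the interaction in Faah (0.29), Mgll (0.67), Oprd1 (0.12), Oprk1 (1.21) and Abhd12 (0.031). Oprk1's interaction was 0.0031 in DESeq2 and 0.0010 under RLE, and Penk under CFA 0.016 in DESeq2, 0.014 under RLE and 0.0062 with the CFA libraries alone.

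Leaving out single libraries turned the sign in these ranges. CFA in WT gave Oprm1 -0.61 to 0.98, Oprk1 -1.49 to 0.13 and Penk -0.22 to 1.63. CFA in iKO gave Pdyn -1.72 to 1.74 and Mgll -0.035 to 0.060. Under vehicle Oprk1 ran from -0.81 to 0.093 and Pnoc from -1.54 to 0.58. Under CFA Oprm1 ran from -1.32 to 0.28, Oprk1 from -0.95 to 0.67, Oprl1 from -0.073 to 0.46, Penk from -0.65 to 1.20 and Pdyn from -0.96 to 2.95. The interaction of Oprk1 ran from -0.67 to 0.96 and of Penk from -0.26 to 1.59. Averaged over treatments Oprm1 ran from -0.21 to 0.59, Oprk1 from -0.62 to 0.19, Cnr1 from -0.12 to 0.25, Penk from -0.52 to 0.41, Pdyn from -1.10 to 0.86 and Faah from -0.053 to 0.10.

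The 40 calls of pathway genes kept 440 of 596 alternatives, lost 154 and changed sign in 2. With 2 libraries a group, and at most 50 reads a library for Pdyn and Pnoc, smaller changes were not detectable.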
